A study of Mus musculus with 8 samples.

Results

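Expression of 9 transcription factor genes of the corneal epithelium and the anterior segment of the eye, Pax6, Trp63, Klf4, Klf5, Ehf, Elf3, Grhl2, Ovol1 and Foxc1, was compared between corneas of mice that overexpress TGF-beta (TGFB) and corneas of their wildtype littermates. The genes were given as a list of symbols, and every probe set that the array's annotation assigns to 1 of these symbols alone was taken. This gave 27 of the 45101 probe sets on the array, and all 9 genes had at least 1 of them. Cornea RNA, extracted with TRizol, was hybridised to 8 Affymetrix arrays of a single colour, 4 TGFB and 4 wildtype, numbered 1 to 4 within each group in record order. The labels give no strain, age, TGF-beta isoform, promoter or site of transgene expression, nor do they state whether the arrays of a group come from different animals. What the p-values measure is thus the spread among these arrays alone, in part perhaps technical, and their number limits the precision.

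Pax6 encodes a paired-box and homeobox factor that is needed to form the eye and, in the adult, to keep the corneal epithelium in its identity. Trp63 encodes p63, the factor of basal cells in stratified epithelia. Klf4 and Klf5 are zinc-finger factors of the Kruppel-like family that are abundant in the corneal epithelium, and both bind CACCC-type and GC-rich elements. Ehf and Elf3 belong to the epithelial branch of the ETS family, whose sites share a GGAA core. Grhl2, of the grainyhead family, activates junction genes of epithelia, and Ovol1 is a zinc-finger repressor that limits mesenchymal gene expression and the growth of epithelial progenitors. Foxc1, a forkhead factor, acts in the neural crest-derived tissues of the anterior segment, such as the stroma, the corneal endothelium and the drainage angle. Signals of TGF-beta are known to reduce epithelial character in many cell types.

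Promoter sequences are shown for Pax6 and Klf4, and for the keratin genes Krt12, known to depend on both of them, and Krt14, known to depend on p63, because the windows differ in their CACCC elements. They cover the 250 bases before the annotated start (RefSeq, GRCm38.p6), written 5′ to 3′ on the gene's strand, and capitals mark CACCC on either strand (GGGTG where it lies on the other).
Pax6 promoter, chr2:105668646-105668895, plus strand: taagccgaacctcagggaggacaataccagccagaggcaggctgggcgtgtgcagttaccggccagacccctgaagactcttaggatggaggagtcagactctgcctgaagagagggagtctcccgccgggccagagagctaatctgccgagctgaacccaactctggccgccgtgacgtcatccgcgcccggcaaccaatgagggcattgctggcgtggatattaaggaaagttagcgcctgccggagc
Klf4 promoter, chr4:55532476-55532725, minus strand: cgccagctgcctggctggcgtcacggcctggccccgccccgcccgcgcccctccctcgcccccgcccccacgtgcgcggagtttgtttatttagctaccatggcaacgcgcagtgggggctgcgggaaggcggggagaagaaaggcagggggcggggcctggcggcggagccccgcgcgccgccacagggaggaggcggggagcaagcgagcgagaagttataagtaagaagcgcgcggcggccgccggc
Krt12 promoter, chr11:99422260-99422509, minus strand: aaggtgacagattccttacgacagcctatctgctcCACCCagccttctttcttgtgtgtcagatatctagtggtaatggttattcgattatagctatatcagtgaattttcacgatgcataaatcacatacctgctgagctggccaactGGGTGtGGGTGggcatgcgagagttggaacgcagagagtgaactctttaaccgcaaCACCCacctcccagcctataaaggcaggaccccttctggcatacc
Krt14 promoter, chr11:100206031-100206280, minus strand: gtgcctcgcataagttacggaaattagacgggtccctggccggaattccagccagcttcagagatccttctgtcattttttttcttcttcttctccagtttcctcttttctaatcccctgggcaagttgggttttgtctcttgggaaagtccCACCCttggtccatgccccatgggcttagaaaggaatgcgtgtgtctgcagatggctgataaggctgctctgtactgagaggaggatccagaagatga
Of the 9 factors 4 were matched to a promoter, Pax6 (2 start sites, the first of them shown), Klf4, Elf3 and Foxc1, and Trp63, Klf5, Ehf, Grhl2 and Ovol1 were not. The motifs searched, on both strands, were CACCC for Kruppel-like factors, AACCNGTT for grainyhead factors, CCGGAA for ETS factors and TATAAA for the TATA box. None of them contains another. CACCC was present 4 times in the Krt12 window, 3 times in that of Krt5, 2 times in that of Elf3, and 1 time each in those of Krt14 and Foxc1, while neither Pax6 window nor the Klf4 window held it. Of all 32851 windows of this length, 52.0% held it at least 1 time, so its presence is common. The Klf4 window was 74.0% G or C and the Krt12 window 48.4%, where the median of all windows was 52.4%. The grainyhead motif AACCNGTT was in none of the windows of these factors or of Krt12, Krt5 and Krt14 (1.79% of all windows). The longer ETS motif CCGGAA was in those of Foxc1 and Krt14 (12.0% of all windows). The motif TATAAA was in that of Krt12 alone among the windows of these factors and the 3 keratins (12.4% of all windows).

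None of the 9 factors differed between the groups past the threshold. By the brightest probe sets, the log2 range of the arrays within each group was larger than the difference of the groups. The wildtype group of Foxc1 was the exception, with a range of 0.32 against a difference of -0.56. Trp63, Klf4, Klf5 and Ovol1 had their highest signals in TGFB 1 and TGFB 2 and, next to these, mostly in wildtype 2, while TGFB 3 and TGFB 4 lay within the wildtype range of the brightest probe sets. Pax6, Elf3 and Foxc1 had their lowest signals in the same TGFB 1 and TGFB 2, while wildtype 2 lay above both of these in all 3 genes. Of the 27 probe sets, 0 passed limma at an adjusted p under 0.05, where 0.00% of all 45037 probe sets tested did. At an unadjusted p under 0.05, 0 of the 27 were higher in TGFB (background 2.70%) and 1 was lower (background 3.16%), so 1 of 27 in either direction (background 5.86%). Groups that do not overlap were found for 0 of the 27, where all probe sets had 1.47% with TGFB higher, 1.81% with TGFB lower and 3.28% in either direction. Over the 9 genes, each by its brightest probe set, 5 differences were above 0 and 4 below, with a median of 0.17, against -0.014 over 18193 genes. Differences are TGFB minus wildtype on the log2(signal + 16) scale, which understates the change of dim genes, and each is given with the standard error (SE) of limma. In RNA of whole corneas, fewer cells of a type and less RNA per cell cannot be told apart.

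**Figure D1:**
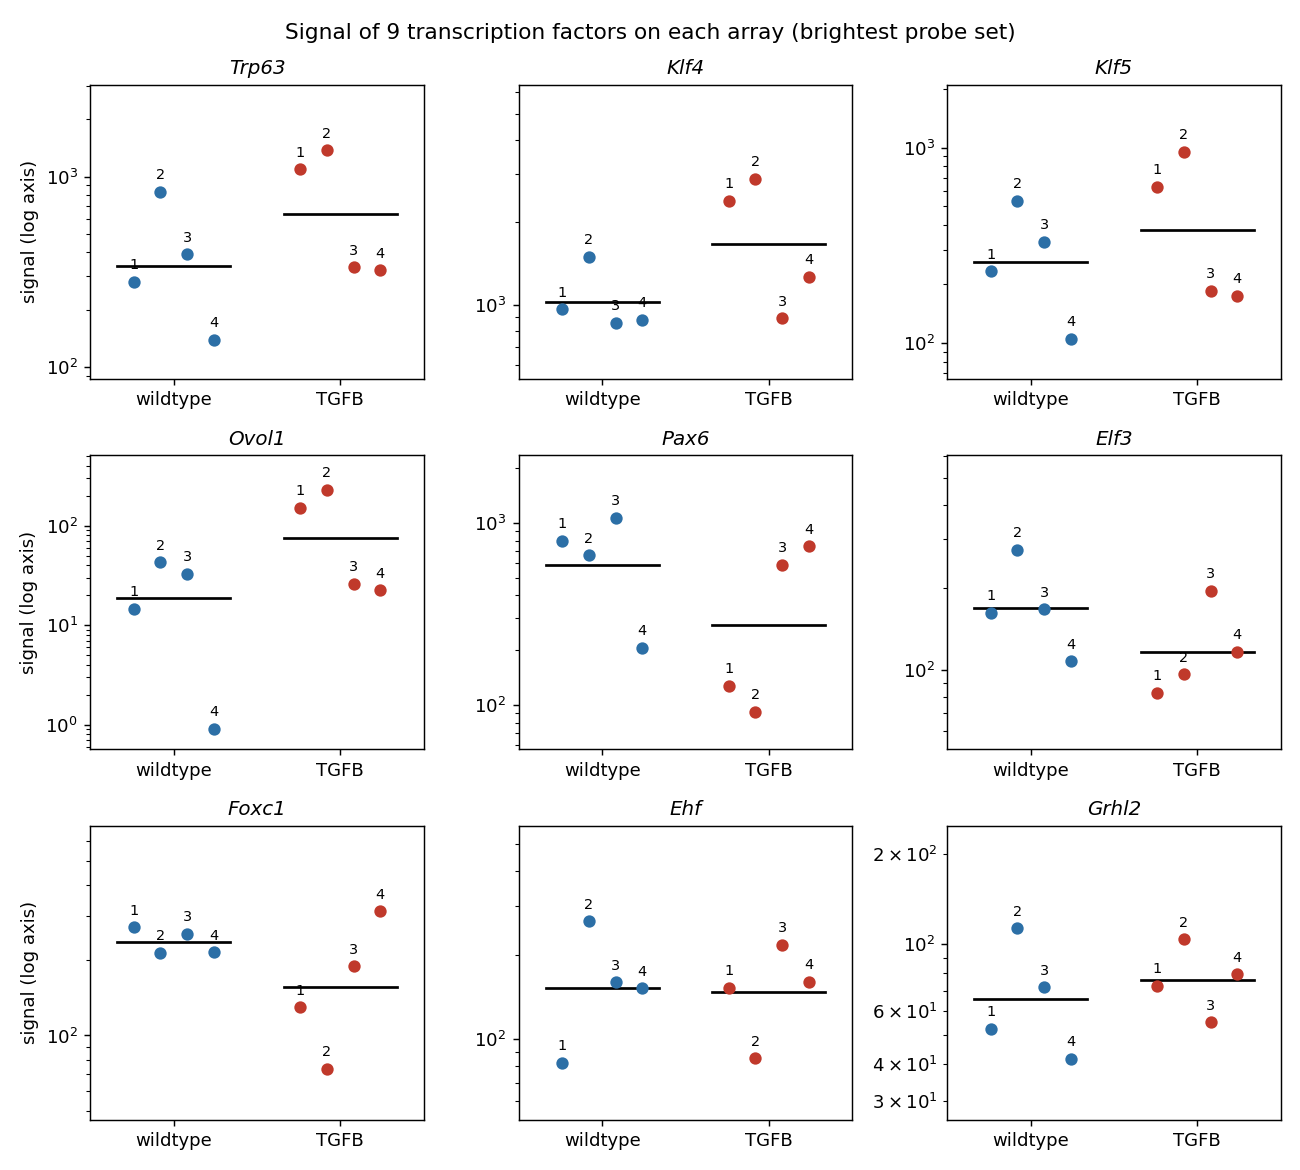
Signal of each of the 9 factors on the 8 arrays (log axis, brightest probe set of each gene, numbers give the array within its group), with a line at the mean of log2(signal + 16) of the group turned back to a signal. TGFB 1 and TGFB 2 are the top points for Trp63, Klf4, Klf5 and Ovol1 and the bottom points for Pax6, Elf3 and Foxc1, and the groups overlap in every panel.

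Markers of the cornea were present on every array, and those of neighbouring tissues differed between arrays. Krt12, the keratin of the differentiated corneal epithelium, gave signals of 289, 3467, 4161 and 4551 in TGFB 1 to 4 and 5146, 3008, 5766 and 562 in wildtype 1 to 4, lowest in TGFB 1 and wildtype 4. The mean of 10 corneal epithelium markers ran from 9.90 to 10.51 in TGFB arrays and from 9.36 in wildtype 4 to 10.85 in wildtype arrays. This mean joins genes that moved in opposite directions. Of the 10, 5 had differences above 0 and 5 below, from -2.05 for Aldh3a1 to 1.38 for Epcam. The mean of 7 cornified epidermis markers was 12.22 and 12.59 in TGFB 1 and TGFB 2 and 11.45 in wildtype 2, while the remaining 5 arrays had 6.24 to 7.20. The mean of 15 lens markers was lowest in the same 3 arrays (4.71, 4.78 and 5.17) and reached 10.61 in wildtype 3. The mean of 8 pigment cell markers lay between 7.60 and 9.28 in TGFB arrays and between 9.22 and 11.55 in wildtype arrays. No array had all genes of the corneal epithelium, cornified epidermis, lens or pigment cell lists below a signal of 16. Retina markers (11 genes) had means of 5.44 to 5.87 in the TGFB group and 5.50 to 8.19 in the wildtype group, vascular endothelium markers (8 genes) 6.94 to 7.18 and 6.83 to 7.61, and skeletal muscle markers (9 genes) 8.45 to 9.16 and 8.69 to 10.71. The 3'/5' signal ratio of Gapdh, a measure of RNA integrity, was 6.41 in wildtype 4 and 2.19 to 4.31 elsewhere.

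Trp63, which marks basal epithelial cells, gave signals of 1089.8, 1375, 335 and 323 in TGFB 1 to 4 and 281, 834, 391 and 139 in wildtype 1 to 4. TGFB 1 and TGFB 2 stood highest, wildtype 2 came next, and TGFB 3 and TGFB 4 lay between wildtype 1 and wildtype 3. On the log2 scale it was 9.35 ± 1.08 in TGFB and 8.47 ± 1.02 in wildtype arrays (mean ± SD, n = 4 each), a difference of 0.88 (SE 0.61, 95% interval -0.49 to 2.25, limma adjusted p = 0.907). A second Trp63 probe set gave signals of 267, 209, 36.5 and 30.5 in TGFB 1 to 4 and 41.2, 87.6, 87.7 and 27.4 in wildtype 1 to 4, with the same TGFB arrays on top and a difference of 0.64 (SE 0.62). There TGFB 3 and TGFB 4 lay below all wildtype arrays but wildtype 4. With single arrays left out, the first ranged from 0.48 (without wildtype 4) to 1.30 (without wildtype 2) and the second from 0.19 (without TGFB 1) to 1.06 (without TGFB 4).

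Klf4, which keeps the surface layers of the corneal epithelium differentiated, gave signals of 2392, 2893, 891 and 1263 in TGFB 1 to 4 and 962, 1496, 857 and 879.6 in wildtype 1 to 4. Of the TGFB arrays, TGFB 1 and TGFB 2 lay above the wildtype range, TGFB 3 among the 3 lower wildtype arrays and TGFB 4 below wildtype 2. The log2 means were 10.72 ± 0.78 in TGFB and 10.02 ± 0.37 in wildtype arrays (mean ± SD, n = 4 each), a difference of 0.70 (SE 0.37, 95% interval -0.12 to 1.53, limma adjusted p = 0.878). Its second probe set gave 379, 778, 149 and 147 in TGFB 1 to 4 and 136, 314, 258 and 133 in wildtype 1 to 4, a difference of 0.51 (SE 0.52). Without TGFB 2 alone the Klf4 differences were 0.44 and 0.047.

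Klf5, which keeps epithelial progenitors dividing in many tissues, had signals of 631, 949.5, 184 and 175 in TGFB 1 to 4 and 233, 535, 328 and 105 in wildtype 1 to 4. The order of the arrays was nearly that of Trp63, with TGFB 3 and TGFB 4 below 3 of the 4 wildtype arrays and wildtype 4 lowest. The difference was 0.51 (SE 0.62, 95% interval -0.87 to 1.90, limma adjusted p = 0.937). A second Klf5 probe set gave 273, 267, 66.2 and 101 in TGFB 1 to 4 and 58.5, 142, 102 and 92.6 in wildtype 1 to 4 and a difference of 0.60 (SE 0.43), but there wildtype 1 and not wildtype 4 was lowest. The first was 0.082 without TGFB 2 and 0.86 without TGFB 4, and the second 0.33 without TGFB 1 and 0.94 without TGFB 3.

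Ovol1 had the largest difference of the 9 genes in the fit of all 8 arrays without weights or covariates, though Pax6 was further from 0 without wildtype 4 and with array weights (-1.16, against 0.91 for Ovol1). Its signals were 151, 230.2, 26.0 and 22.4 in TGFB 1 to 4 and 14.6, 42.8, 32.6 and 0.911 in wildtype 1 to 4. They were below 16 in wildtype 1 and wildtype 4 and above 64 in TGFB 1 and TGFB 2 only. The log2 means were 6.50 ± 1.37 in TGFB and 5.12 ± 0.80 in wildtype arrays (mean ± SD, n = 4 each), a difference of 1.37 (SE 0.65, 95% interval -0.092 to 2.84, limma adjusted p = 0.854). TGFB 3 and TGFB 4 lay below wildtype 2 and wildtype 3, so the groups overlapped. The second Ovol1 probe set gave 68.8, 68.9, 0.338 and 1.28 in TGFB 1 to 4 and 1.20, 23.3, 14.5 and 3.71 in wildtype 1 to 4, with a difference of 0.58 (SE 0.60). There TGFB 3 and TGFB 4 were among the 3 lowest arrays. Without TGFB 2 the Ovol1 differences were 0.89 and 0.19.

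These 4 factors are grouped by their array order, so a count of that order describes the grouping and is no test. TGFB 1 and TGFB 2 held both of the highest places for 8 of the 8 probe sets that reached a signal of 64. Wildtype 2 held the third place for 7 of them. The Ovol1 probe sets reached 64 in TGFB 1 and TGFB 2 only. Among the probe sets below 64, a Trp63 one had TGFB 1 lowest and that of Klf5 had TGFB 2 in place 4. Another Trp63 one had TGFB 1 and TGFB 2 highest. TGFB 1, TGFB 2 and wildtype 2 are the arrays with high cornified epidermis markers. Without TGFB 1, TGFB 2 and wildtype 2, the differences of the brightest probe sets were 0.37 for Trp63, 0.24 for Klf4, -0.16 for Klf5 and 0.45 for Ovol1 (SE 0.41, 0.22, 0.44 and 0.44). Klf5 thus changed sign. TGFB 1 and TGFB 2 were the highest arrays for these genes, so leaving both out was bound to lower the TGFB means. That fit therefore cannot show whether the cornified epidermis markers matter. With all arrays and the cornified epidermis marker mean as a covariate, the 4 differences were 0.32, 0.38, -0.033 and 0.80 (SE 0.26, 0.18, 0.29 and 0.32), all smaller than with no covariate. In that fit Ovol1 had the smallest unadjusted limma p of the 4 (0.0363), with a limma adjusted p = 0.748. All 4 were also smaller with the lens marker mean (0.64, 0.52, 0.28 and 1.13). So they were with the pigment cell marker mean (0.43, 0.12, 0.15 and 0.87). With the corneal epithelium marker mean all 4 were larger (0.96, 0.71, 0.60 and 1.44).

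Pax6 gave signals of 127, 91.6, 590.4 and 746 in TGFB 1 to 4 and 799, 663, 1068 and 206 in wildtype 1 to 4. TGFB 1 and TGFB 2 were the lowest arrays and wildtype 4 the third lowest, while TGFB 3 and TGFB 4 lay near the other wildtype arrays. On the log2 scale it was 8.18 ± 1.43 in TGFB and 9.24 ± 1.00 in wildtype arrays (mean ± SD, n = 4 each), a difference of -1.06 (SE 0.71, 95% interval -2.67 to 0.55, limma adjusted p = 0.906). Wildtype 2, which shared the high cornified epidermis markers and the low lens markers of TGFB 1 and TGFB 2, had a Pax6 signal of 663, above both of theirs. Pax6 is also made in lens, iris and retina, and the lens and pigment cell marker means were both lowest in TGFB 1 and TGFB 2. The retina marker mean was 5.46 in TGFB 1, 5.44 in TGFB 2 and 5.50 in wildtype 4, and its part in the Pax6 values was not tested. With the lens marker mean as a covariate the difference was -0.65 (SE 0.46), and with the pigment cell marker mean it was 0.80 (SE 0.75). Such fits cannot tell a difference in tissue content from one in Pax6 itself, and the cause was not tested. The difference also depended on the arrays used. Without TGFB 1, TGFB 2 and wildtype 2 the Pax6 difference was 0.23 (SE 0.67). As TGFB 1 and TGFB 2 were the lowest arrays, leaving both out was bound to raise the TGFB mean. With single arrays left out the Pax6 difference ranged from -1.54 without wildtype 4 (SE 0.68, limma adjusted p = 0.439) to -0.58 without TGFB 2. The sign of the Pax6 difference was thus not the same in all settings. Of the other 4 Pax6 probe sets, all below a signal of 64, the brightest ran from 1.44 in wildtype 4 to 61.1 in wildtype 3 with TGFB 1 and TGFB 2 at 11.1 and 13.6.

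Elf3, an ETS factor of differentiating epithelia, gave signals of 82.6, 96.7, 195 and 117 in TGFB 1 to 4 and 161, 275, 167 and 108 in wildtype 1 to 4. Wildtype 2 was highest and TGFB 1 and TGFB 2 lowest, though wildtype 4 lay below TGFB 3 and TGFB 4. The difference was -0.48 (SE 0.30, 95% interval -1.16 to 0.20, limma adjusted p = 0.900), and without TGFB 1, TGFB 2 and wildtype 2 it was 0.075 (SE 0.30). Without wildtype 2 alone it was -0.26. With TGFB 1 and TGFB 2 the lowest arrays, leaving both out was bound to raise the TGFB mean. Elf3 thus had its highest and its lowest signals in the 3 arrays with high cornified epidermis markers. The mean of 7 markers of conjunctiva and simple epithelium, where Elf3 is also made, was 7.75 and 7.03 in TGFB 1 and TGFB 2, 9.10 in wildtype 2, and between 8.50 and 8.96 in the others. Its part in the Elf3 values was not tested.

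Foxc1 was measured by 2 probe sets. The brighter one gave 129.6, 73.6, 189 and 314 in TGFB 1 to 4 and 271, 214, 255 and 215 in wildtype 1 to 4, with a narrow wildtype group and a wide TGFB group that reached from the lowest to the highest array. Its log2 means were 7.43 ± 0.79 in TGFB and 7.99 ± 0.16 in wildtype arrays (mean ± SD, n = 4 each), a difference of -0.56 (SE 0.35, 95% interval -1.34 to 0.22, limma adjusted p = 0.898). The second gave 38.5, 36.5, 94.3 and 61.9 in TGFB 1 to 4 and 94.4, 90.1, 112 and 82.0 in wildtype 1 to 4, and there only TGFB 3 lay inside the wildtype range. Its difference was -0.64 (SE 0.24, 95% interval -1.18 to -0.10), the only one of the 27 with an unadjusted p under 0.05 (0.0244), and its limma adjusted p was 0.837. Without TGFB 1, TGFB 2 and wildtype 2 the 2 probe sets gave -0.010 (SE 0.26) and -0.27 (SE 0.24). TGFB 1 and TGFB 2 were their lowest arrays, so leaving both out was bound to raise the TGFB means. As covariates, the pigment cell marker mean gave -0.043 (SE 0.50) and -0.19 (SE 0.32) and the lens marker mean -0.38 and -0.54. The cornified epidermis marker mean gave -0.31 and -0.49 and the corneal epithelium marker mean -0.54 and -0.62. With single arrays left out, the brighter one ranged from -0.87 without TGFB 4 to -0.24 without TGFB 2, and the second from -0.86 to -0.50. The mean of 10 stroma markers, from a tissue in which Foxc1 is known to act, was 10.90 to 11.28 on TGFB arrays and 11.19 to 11.72 on wildtype ones, and its part in the Foxc1 values was not tested.

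Ehf and Grhl2 had the smallest differences. Ehf, the other epithelial ETS factor, gave 153, 85.5, 218 and 161 in TGFB 1 to 4 and 82.5, 265, 159.9 and 152 in wildtype 1 to 4, a difference of -0.050 (SE 0.34, 95% interval -0.82 to 0.72, limma adjusted p = 0.992). Its highest array was wildtype 2 and its lowest wildtype 1, so the whole span lay within the wildtype group. A second Ehf probe set gave 48.0, 34.8, 116 and 76.7 in TGFB 1 to 4 and 20.4, 64.9, 62.7 and 77.1 in wildtype 1 to 4 and a difference of 0.22 (SE 0.36), with wildtype 1 again lowest. Grhl2 gave 72.8, 104, 54.9 and 79.5 in TGFB 1 to 4 and 52.1, 113, 71.9 and 41.5 in wildtype 1 to 4, a difference of 0.17 (SE 0.26, 95% interval -0.42 to 0.77, limma adjusted p = 0.952). It too had its highest and lowest arrays, wildtype 2 and wildtype 4, in the wildtype group. The intervals leave room for a change of either sign in both genes. With single arrays left out, the brightest probe sets ranged from -0.31 (without wildtype 1) to 0.19 (without wildtype 2) for Ehf and from 0.0055 (without wildtype 4) to 0.39 (without wildtype 2) for Grhl2.

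**Figure D2:**
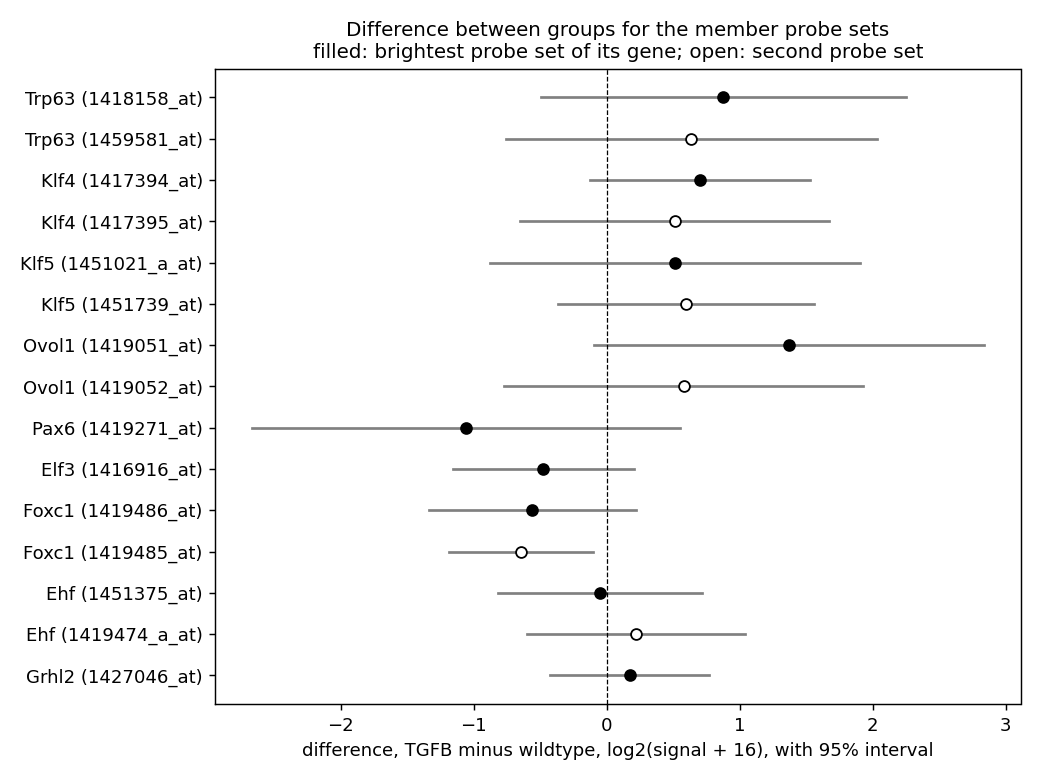
Difference between TGFB and wildtype arrays, with 95% interval, for the 15 probe sets of the 9 factors that reached a signal of 64 on at least 1 array (filled: brightest of its gene). All intervals but that of the second Foxc1 probe set (-1.18 to -0.10) include 0, and the smallest adjusted p was 0.837.

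The remaining 12 of the 27 probe sets stayed below a signal of 64 on every array: 4 of Pax6, 2 of Trp63, 1 of Klf5, 2 of Ehf and 3 of Grhl2. Their differences ran from -0.40 to 0.25, and their smallest limma adjusted p was 0.910. The highest signal among them was the 61.1 of the Pax6 probe set in wildtype 3, so the offset of 16 shrinks their differences most.

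Arrays of 1 group spread widely for several of these factors. Among probe sets with a mean log2(signal + 16) of at least 7, a larger within-group SD than that of the brightest Pax6 probe set (1.24) was rare: 98.7% of them had a smaller one. The same share was 97.9% for Trp63 (SD 1.05), 98.0% for Klf5 (1.06) and 89.1% for Klf4 (0.61). Of the 7 factors with a mean of at least 7, the lowest share was that of Elf3 with 81.7% (SD 0.49). The difference between groups held 19.6% of the sum of squares over the 8 arrays for Pax6, 19.0% for Trp63, 7.26% for Klf5 and 33.3% for Ovol1, with the rest lying between arrays of 1 group.

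**Figure D3:**
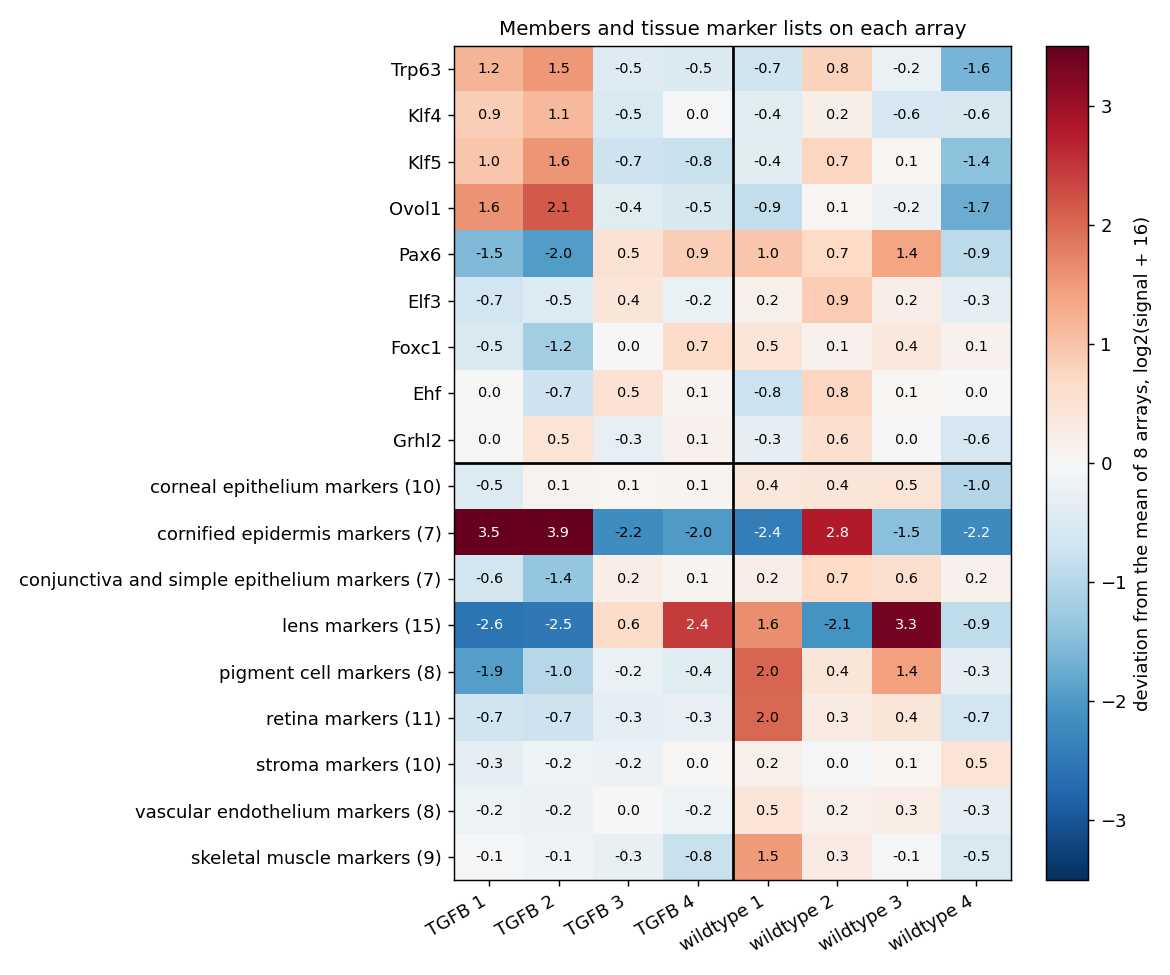
Deviation of each array from the mean of the 8 arrays on the log2(signal + 16) scale, for the 9 factors (above the line, brightest probe set) and for the mean of each tissue marker list (below it, number of genes in brackets). Trp63, Klf4, Klf5 and Ovol1 are red in TGFB 1 and TGFB 2, as the cornified epidermis markers are. In wildtype 2, where those markers are red too, Trp63 (0.82) and Klf5 (0.74) are weakly red, and Klf4 (0.19) and Ovol1 (0.066) are near 0. Pax6 is blue in TGFB 1, TGFB 2 and wildtype 4 but not in wildtype 2.

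The genes whose profiles over the 8 arrays lay closest to those of the 3 factors with the widest range were found by the root mean square difference between profiles, each centred on its own mean, among 8185 other genes with a mean of at least 7. Closest to Trp63 were the epithelial splicing regulators Esrp1 (0.18) and Esrp2 (0.20) and then Trim29 (0.23), where the median of all these genes was 1.03. Closest to Ovol1 were Esrp2 (0.29), the ceramide synthase Cers3 (0.32) and Esrp1 (0.34). Esrp1 signals were 768, 1115, 214 and 189 in TGFB 1 to 4 and 156, 542, 244 and 115 in wildtype 1 to 4, with TGFB 1, TGFB 2 and wildtype 2 highest, as for Trp63. Closest to Pax6 were Ildr2 (0.31), the claudin Cldn3 (0.34) and Stmn3 (0.36), against a median of 1.22. Cldn3 signals were 81.9, 53.1, 457 and 540.1 in TGFB 1 to 4 and 279, 406, 549 and 150.2 in wildtype 1 to 4, so it shared the low values of Pax6 in TGFB 1, TGFB 2 and wildtype 4. The probe sets of these last 3 genes carry the suffix that Affymetrix gives to probe sets able to bind related transcripts. The brightest probe sets of Krt14 and Tkt, whose values are given below, carry it too. All these genes were measured on the same 8 arrays, so they share the marker differences given above.

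Relatives of the 9 factors had differences around 0. Of 24 listed relatives, such as other Pax, Klf, ETS, grainyhead, Ovol and Fox genes, 23 were measured, 0 passed limma at an adjusted p under 0.05 and 0 at an unadjusted one in either direction (background over genes 2.69% higher and 4.54% lower), with a median difference of -0.010. The smallest p belonged to Pax8 (-0.43, SE 0.23), which was dim with signals from 0.709 to 22.1, to Klf10, a TGF-beta-inducible Kruppel-like factor (0.34, SE 0.21), and to Grhl1 (0.86, SE 0.55). Grhl1, another grainyhead gene, gave 332, 493, 84.5 and 101 in TGFB 1 to 4 and 69.1, 199, 121 and 60.2 in wildtype 1 to 4, with TGFB 1, TGFB 2 and wildtype 2 highest, as for Trp63. Of 30 further factors of the anterior segment, 25 were measured and 0 passed. At an unadjusted p under 0.05, 1 was lower, the retinoic acid receptor Rarb (-1.22, SE 0.41), and 0 were higher, with a median of -0.036. Dach1 had -0.74 (SE 0.41) and Gata3 1.32 (SE 0.75). Gata3 signals in TGFB 1, TGFB 2 and wildtype 2 were 132, 216 and 55.7, against 2.38 to 21.7 on the other arrays. Without TGFB 2, Grhl1 had 0.44, Dach1 -0.46 and Gata3 0.77, and without wildtype 3, Klf10 had 0.18.

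Genes that have been tied to the factors were counted in 4 lists drawn up from general knowledge, which were not tested here as targets. None of their members passed limma at an adjusted p under 0.05. Over all genes, 8615 of 18193 differences were above 0, 2.69% of genes were higher and 4.54% lower at an unadjusted p under 0.05, and the median was -0.014. Of 15 measured genes linked to p63 and basal cells, 11 had differences above 0, 4 were higher and 0 lower at an unadjusted p under 0.05 (over all genes 2.69% and 4.54%), and the median was 0.64. Krt14, the basal keratin, gave 4872, 5045, 4609.6 and 4419 in TGFB 1 to 4 and 1274, 3408, 1742 and 3058 in wildtype 1 to 4 and a difference of 1.10 (SE 0.29, limma adjusted p = 0.824). The groups did not overlap for Krt14, and TGFB 3 and TGFB 4 were above every wildtype array, which they were not for Trp63. Other Krt14 probe sets also had groups without overlap. The laminin chain Lamb3 (1.35, SE 0.36) did not overlap either, and the integrin Itga6 had 0.64 (SE 0.25). Groups that do not overlap with TGFB higher made up 1.49% of all genes and those with TGFB lower 2.45%. Of the 15 genes, 2 were of the first kind and 0 of the second.

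Of 12 genes linked to Pax6 in the cornea, 1 was higher and 2 were lower at an unadjusted p under 0.05 (over all genes 2.69% and 4.54%), and the median was -0.18, against -0.014 over all genes. Transketolase Tkt, an abundant corneal enzyme, gave 1889.9, 2532, 1949 and 2214 in TGFB 1 to 4 and 5287, 3426, 5914 and 2554 in wildtype 1 to 4 and a difference of -0.93 (SE 0.26), with no overlap of the groups. TGFB 3 and TGFB 4, whose Pax6 signals were like those of wildtype arrays, had Tkt signals between those of TGFB 1 and TGFB 2. Other Tkt probe sets gave -1.21 and -0.15, both with overlap. Aldh1a1 had -1.07 (SE 0.43) and the protease Mmp9 1.73 (SE 0.58), and Aldh1a1 had -0.67 without TGFB 1. Aldh3a1, a corneal crystallin enzyme, gave 52.5, 66.7, 72.8 and 128 in TGFB 1 to 4 and 4060.1, 167, 315 and 70.5 in wildtype 1 to 4, highest by far in wildtype 1. Its difference was -2.05 (SE 1.00), and -0.91 without that array. Krt12 had -0.34 (SE 0.98). Its low arrays TGFB 1 and wildtype 4 were also low in Pax6, while TGFB 2 was low in Pax6 but at 3467 in Krt12. Krt5, the partner keratin of basal cells, had 0.30 (SE 0.32), and 0.018 without wildtype 4. Over these 6 genes, adjusted p by limma ran from 0.834 to 0.979.

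Of 12 measured genes linked to Klf4 and Klf5, 8 had differences above 0, 2 were higher and 0 lower at an unadjusted p under 0.05 (over all genes 2.69% and 4.54%), with a median of 0.28. The desmosome protein Dsp had 0.90 (SE 0.31), the cell cycle inhibitor Cdkn1a 0.92 (SE 0.35) and Egr1 0.51 (SE 0.23). Cdkn1a had 0.59 without wildtype 1. Of 16 measured junction and epithelial genes linked to Grhl2, Ehf and Ovol1, 12 had differences above 0, 3 were higher and 0 lower at an unadjusted p under 0.05 (over all genes 2.69% and 4.54%), with a median of 0.45. The adhesion protein Epcam gave 947, 799, 1024 and 1124 in TGFB 1 to 4 and 184, 692, 350.3 and 372 in wildtype 1 to 4 and a difference of 1.38 (SE 0.33, limma adjusted p = 0.822). The membrane protease St14 had 0.87 (SE 0.22), and E-cadherin Cdh1 0.84 (SE 0.26). Epcam and St14 had groups that do not overlap (over all genes 1.49% with TGFB higher), while the TGFB range of Grhl2 lay inside its wildtype range. Wildtype 4 had both the lowest mean of corneal epithelium markers and the highest 3'/5' ratio of Gapdh (6.41). It was also the lowest array for the brightest probe sets of Trp63, Klf5, Ovol1 and Grhl2. Without it, Trp63 had 0.48 (SE 0.59), Klf5 0.12 (SE 0.60), Ovol1 1.02 (SE 0.67) and Grhl2 0.0055 (SE 0.26).

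**Figure D4:**
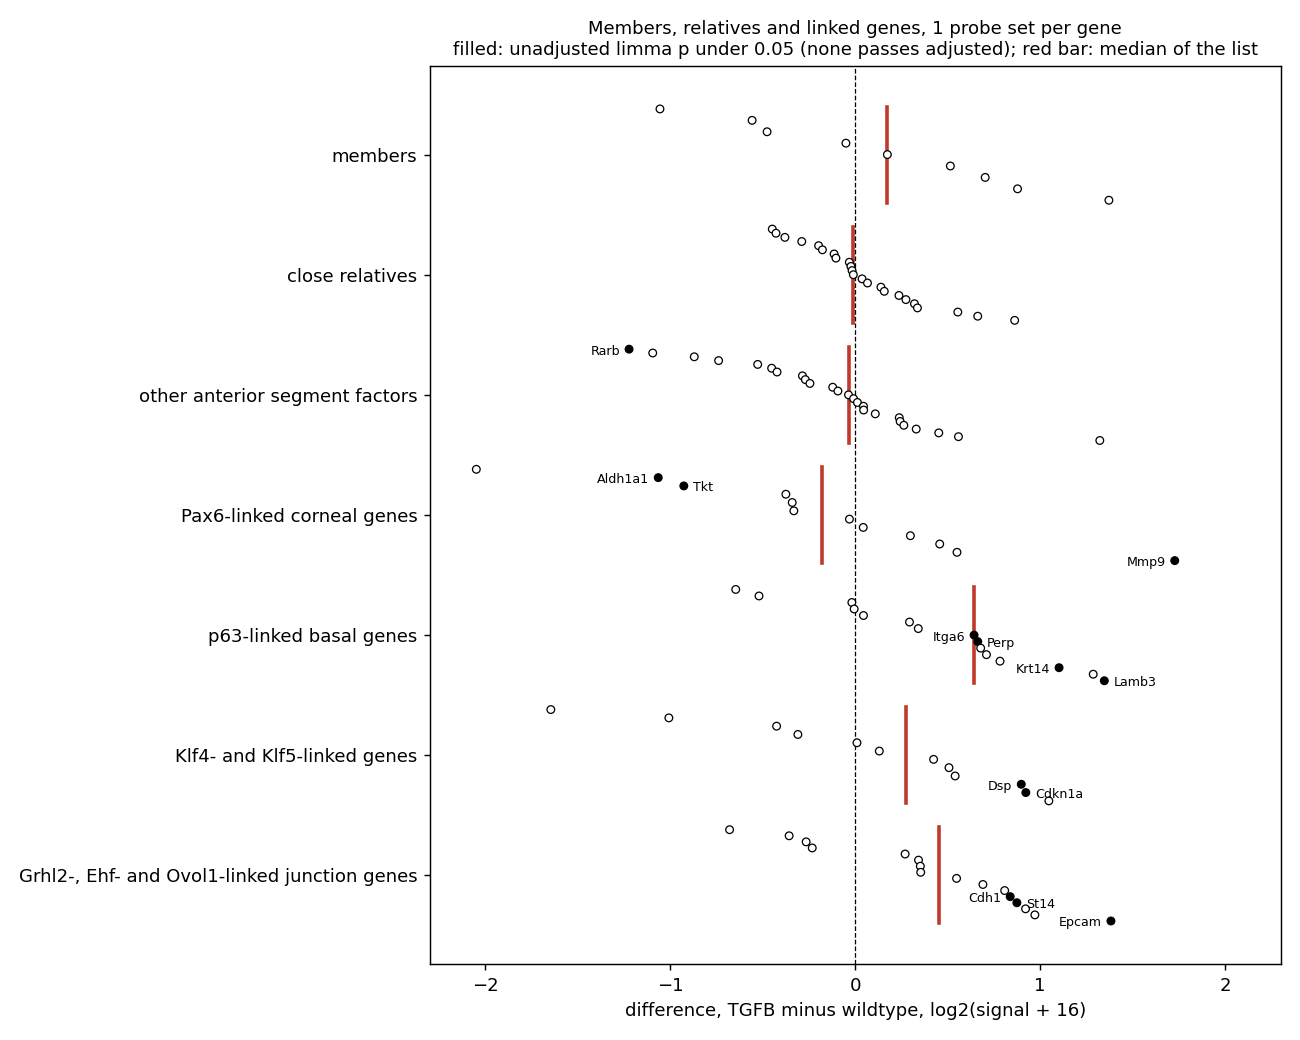
Difference between TGFB and wildtype arrays for each measured gene of the 9 factors, their relatives, other factors of the anterior segment and the 4 lists of linked genes (1 point per gene, brightest probe set; filled where the unadjusted limma p is under 0.05; red bar at the list median). The 9 factors spread from -1.06 to 1.37 and their 23 relatives from -0.45 to 0.86, and no gene passes the adjusted threshold.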

How the data were processed

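The deposited table holds linear signal intensities of 45101 probe sets on 8 arrays. Which tool made and scaled these values is not given in the sources used here. On every deposited array the intensities had a 2% trimmed mean of 150.0, and they were used without further normalization. Median signals ran from 26.3 to 34.4, and 34.9% to 40.9% of probe sets lay below 16. Groups came from the labels' descriptions. An annotation of the array named the probe sets, with symbols updated by Entrez ID through RefSeq (34958 with 1 symbol, 932 with several, 9211 unnamed).

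Values were taken as log2(signal + 16). All 45037 probe sets other than 64 controls entered 1 fit by lmFit and eBayes without a trend (limma 3.58.1, R 4.3.3), p-values were adjusted by Benjamini-Hochberg across all of these, and low values were not filtered. A gene is represented by its brightest probe set over the 8 arrays. The 9 factors, the lists and the markers were chosen with earlier results of these data known. Named were all probe sets of the 9 factors, up to 3 genes with the smallest p of each list, and Krt12, Aldh3a1, Krt5, Krt14 and Cdh1, and, for the 3 factors of widest range over the arrays, the 3 other genes with the closest profiles. Probe sets below a signal of 64 on every array are called dim, a limit set after the values were seen. No list was given a set test. Limma was tested on simulated data with 200 changed probe sets among 45037 (5 simulations of 4 against 4 arrays). It recovered 35.2% of log2 changes of 1, 83.0% of 2 and 95.8% of 3, and 4.83% of its calls were false. The simulated noise was independent between probe sets, unlike the marker patterns that the real arrays share. Changed probe sets were drawn from all of them, so the recovery is not that of the 9 factors, several of which spread more widely than most bright probe sets. The fit was repeated with an offset of 1 or 32, with values centred on array medians or quantile normalized, without the probe sets below the 40th percentile, with 1 probe set or a mean over probe sets per gene, with a trend, robust eBayes or array weights, with marker means as covariates, and without single arrays or TGFB 1, TGFB 2 and wildtype 2 together.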

Additional observations from a re-analysis of the deposited data

Results flagged for a closer look

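Of the 72 groups of 4 arrays examined for the probe sets of the 9 factors and the other named genes, 3 held an array far from the rest, where chance gives about 1 in 20. None of them was among the 30 groups of the factors' own probe sets. The distance is the gap to the nearest array divided by the whole range of the group. In the wildtype group, Mmp9 was highest in wildtype 4, with a signal of 55.8 and a gap of 0.929 of the range. In the TGFB group, St14 was highest in TGFB 2, with a signal of 404 and a gap of 0.893. In the same group Krt12 was lowest in TGFB 1, with a signal of 289 and a gap of 0.900.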

How the results depend on the processing

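No probe set of the 9 factors passed limma under any of 23 settings. The count over all probe sets was 0 in each setting other than leaving out single arrays, where it ran from 0 to 2. The 2 calls, without wildtype 4, were both probe sets of Ces1d (-3.25 and -2.34, adjusted p = 0.00356 and 0.0393), named after their values were seen. Of 332 values for the 15 probe sets of the factors that are not dim, 311 kept their direction and 21 turned it. For the other 21 named genes 473 of 482 kept it. Quantile normalization and median centring turned none. The corneal epithelium marker mean as a covariate, added after the data were seen, turned none. Its group means were close (10.33 in TGFB and 10.44 in wildtype arrays), so it could move the differences little. Several of the named genes also belong to that marker list. With the pigment cell marker mean as a covariate, Pax6 came to 0.80, the second probe sets of Trp63, Klf4, Klf5 and Ovol1 to -0.17, -0.051, -0.34 and -0.50, Dach1 to 0.30, Gata3 to -0.17, Krt12 to 2.64 and Aldh3a1 to 0.68. Without TGFB 1, TGFB 2 and wildtype 2, Pax6 came to 0.23, the brightest Klf5 probe set to -0.16, the second ones of Trp63, Klf4, Klf5 and Ovol1 to -0.37, -0.17, -0.0045 and -0.37, the brightest of Ehf to 0.51, Elf3 to 0.075, Dach1 to 0.029 and Krt12 to 0.76. With the cornified epidermis marker mean, Klf5 came to -0.033 and Grhl2 to -0.0010. With array weights Grhl2 came to -0.085, with the lens marker mean Krt12 to 0.084, and with probe sets averaged per gene Ehf to 0.063. Over single arrays left out, the Ehf probe sets ran from -0.31 to 0.19 and from -0.081 to 0.44, and Krt12 from -1.08 to 0.59. The cause of these turns was not tested. The filter at the 40th percentile gave no value for dim probe sets below it. Low signal limits Ovol1, which was near the offset of 16 on several arrays. No paired analysis was possible because the labels give the groups no shared replicate numbers.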

Other observations

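Some relatives, named here after their values were seen, had the array pattern of Trp63. Grhl3, a grainyhead factor of surface epithelia, gave signals of 102, 166, 27.4 and 34.5 in TGFB 1 to 4 and 33.3, 70.7, 40.9 and 15.1 in wildtype 1 to 4, with TGFB 1, TGFB 2 and wildtype 2 highest, and a difference of 0.66 (SE 0.48, limma adjusted p = 0.911). Trp73, the p63 relative, gave 90.3, 100.3, 16.5 and 17.0 in TGFB 1 to 4 and 20.7, 35.2, 25.1 and 20.8 in wildtype 1 to 4, with the same 3 arrays highest and a difference of 0.55 (SE 0.44, adjusted p = 0.916).

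Otx2 and Six3, factors of the retina, iris and lens that were also named after their values were seen, had the same 3 lowest arrays as Pax6, which were TGFB 2, TGFB 1 and wildtype 4. Otx2 gave 128, 65.2, 526 and 403 in TGFB 1 to 4 and 799, 329, 734 and 247 in wildtype 1 to 4 and a difference of -1.10 (SE 0.62, limma adjusted p = 0.892). Six3 gave 49.6, 21.0, 114 and 128 in TGFB 1 to 4 and 139.9, 124, 328 and 51.6 in wildtype 1 to 4 and a difference of -0.87 (SE 0.55, adjusted p = 0.900).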
